A study of Mus musculus with 8 samples.

Results

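The adipocyte marker genes described here are *Adipoq*, *Cfd*, *Fabp4*, *Plin1*, *Cidec*, *Scd1*, *Retn* and *Pparg*, followed across every wild-type (WT) and Klotho-deficient (KL-/-) muscle. They were taken by gene symbol from the deposited counts per gene, and 7 of the 8 were found among its 12551 genes. *Plin1* was not analysed here. RNA came from whole tibialis anterior (TA) muscle, a fast-twitch muscle of the lower leg, of 4 WT and 4 KL-/- male littermates at 7 weeks of age. The KL-/- mice are homozygous for a null allele of Klotho and the WT mice carry the normal allele on both chromosomes. Both came from heterozygous breeders of mixed background from Taconic, so the deficiency is present in every tissue from conception and strain background can differ between littermates. No treatment was given. Muscles were frozen whole, and 100 ng of RNA entered each library. The sample records name total RNA, whereas the methods describe mRNA sequencing.

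White adipocytes store triglyceride in one large lipid droplet and release hormones called adipokines. The nuclear receptor PPARγ, encoded by *Pparg*, binds DNA with a retinoid X receptor partner and drives the adipocyte program, to which all the other genes of the group belong. In skeletal muscle, adipocytes lie between fibres and bundles and can arise from fibro-adipogenic progenitors, while muscle fibres hold small droplets of their own and capillary endothelium expresses some of the same lipid-binding proteins.

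Fold changes are KL-/- over WT, from edgeR's quasi-likelihood test with genotype as the only term and Benjamini-Hochberg adjustment over all 12551 genes (FDR, called when under 0.05). Levels are in CPM, counts divided by the library size after TMM scaling, given as mean ± SD with n = 4 mice per genotype, and fold changes are on the log2 scale with their standard error (SE). Of all genes, 1759 or 14.0% were called, 922 (7.35%) as higher and 837 (6.67%) as lower in KL-/- muscle, and the median log2 fold change was −0.016. When libraries were scaled by their totals, 2619 genes were called, 492 of them higher and 2127 lower. Libraries held 20860262 to 29273758 counts on genes, at which 3 counts correspond to 0.105 to 0.143 CPM. KL-/- replicate 3 carries another batch date in the sample records than the other 7 libraries, so for that library batch and mouse cannot be told apart. The Klotho transcript was not analysed here, and the genotypes rest on the sample records. All 10 fast-fibre markers examined were abundant, summing to 147604 to 231927 CPM, as the tissue label states. The records list the libraries as separate samples of a genotype, and the edgeR p-values set the genotype difference against the spread between these samples.

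The promoter sequences of the genes that turned out to vary together, and of their regulator, are shown because members that move together are often compared at the sequence level. RefSeq start sites on GRCm38.p6 (mm10) gave 1 promoter each for *Adipoq*, *Cfd* and *Retn*, 2 for *Cidec* and 3 for *Pparg*, each running from 250 bases before to 50 bases after the start. *Adipoq* lies at chr16:23146286-23146585 on the plus strand, *Cfd* at chr10:79890603-79890902 on the plus strand, *Retn* at chr8:3655520-3655819 on the plus strand, the downstream *Cidec* promoter at chr6:113434715-113435014 on the minus strand, and the most downstream *Pparg* promoter at chr6:115421816-115422115 on the plus strand. Capitals mark every match on either strand to AGGTCA (the half-site read by nuclear receptors), TTGCNNAA (a pattern read by C/EBP factors), CCAAT or TATAAA. Sequences run 5′ to 3′ on the strand of the gene.
Adipoq: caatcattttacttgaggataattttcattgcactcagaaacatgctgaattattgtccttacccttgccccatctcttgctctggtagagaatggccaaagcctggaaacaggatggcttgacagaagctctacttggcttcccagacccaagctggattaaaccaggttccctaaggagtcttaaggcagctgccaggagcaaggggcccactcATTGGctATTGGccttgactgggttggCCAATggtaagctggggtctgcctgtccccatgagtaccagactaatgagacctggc
Cfd: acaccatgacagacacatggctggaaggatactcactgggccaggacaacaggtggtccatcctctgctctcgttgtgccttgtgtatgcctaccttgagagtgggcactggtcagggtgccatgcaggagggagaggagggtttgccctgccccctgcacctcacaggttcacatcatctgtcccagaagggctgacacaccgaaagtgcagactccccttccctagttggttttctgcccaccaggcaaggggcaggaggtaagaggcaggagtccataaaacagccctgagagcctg
Retn: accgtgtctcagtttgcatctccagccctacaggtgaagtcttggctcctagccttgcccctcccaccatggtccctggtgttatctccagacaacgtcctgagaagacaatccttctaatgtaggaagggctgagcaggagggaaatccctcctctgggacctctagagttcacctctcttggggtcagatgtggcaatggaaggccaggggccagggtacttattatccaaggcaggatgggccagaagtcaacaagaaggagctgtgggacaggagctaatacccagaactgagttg
Cidec: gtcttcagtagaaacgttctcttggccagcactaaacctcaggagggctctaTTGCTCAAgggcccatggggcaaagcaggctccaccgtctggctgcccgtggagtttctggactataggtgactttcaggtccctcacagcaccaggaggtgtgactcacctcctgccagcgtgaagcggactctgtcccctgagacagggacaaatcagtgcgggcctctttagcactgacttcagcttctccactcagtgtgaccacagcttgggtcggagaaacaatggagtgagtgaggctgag
Pparg: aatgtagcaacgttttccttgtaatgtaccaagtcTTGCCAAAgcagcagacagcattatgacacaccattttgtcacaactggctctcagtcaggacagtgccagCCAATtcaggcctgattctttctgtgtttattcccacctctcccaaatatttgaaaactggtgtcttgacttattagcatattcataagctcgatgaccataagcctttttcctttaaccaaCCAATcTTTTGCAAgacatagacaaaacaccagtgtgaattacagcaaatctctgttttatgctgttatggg
The *Adipoq* promoter held 3 CCAAT matches, where 37.4% of 32851 RefSeq promoters of this length held at least 1. The *Cidec* promoter shown held 1 match to TTGCNNAA and the *Pparg* promoter shown held 2, beside 2 CCAAT matches, against 10.8% of promoters with at least 1 TTGCNNAA. The *Cfd* and *Retn* promoters and the other *Cidec* promoter held none of these letters. AGGTCA occurred once in each of the other 2 *Pparg* promoters and in 16.3% of all promoters, and TATAAA once in 1 of them, which also held 1 CCAAT match, and in 13.6% of all promoters. The full direct repeat AGGTCANAGGTCA, the arrangement bound by PPARγ with its partner, was absent from every member promoter examined and was present in 0.0396% of all. *Plin1*, whose counts were not analysed here, has 1 RefSeq promoter with 2 TTGCNNAA matches. These are descriptions of letters in a short window. *Fabp4* and *Scd1* are named only.

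In TA muscle all 7 genes had a higher fitted level in KL-/- than in WT mice, and *Fabp4* was the only 1 called, higher by 0.27 on the log2 scale. That is 1 of 7, where 7.35% of all genes were called higher and 14.0% in either direction. The other 6 had positive fold changes of 0.43 to 1.80 that were not called. For *Pparg*, *Adipoq*, *Cfd*, *Retn*, *Cidec* and *Scd1* the highest and lowest mice of a genotype differed by more than the means of the genotypes did. The median log2 fold change of the 7 genes was 1.20. An unadjusted p under 0.05 was reached by 2 of the 7, *Fabp4* and *Scd1*, where 32.1% of all genes reached it.

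**Figure D1:**
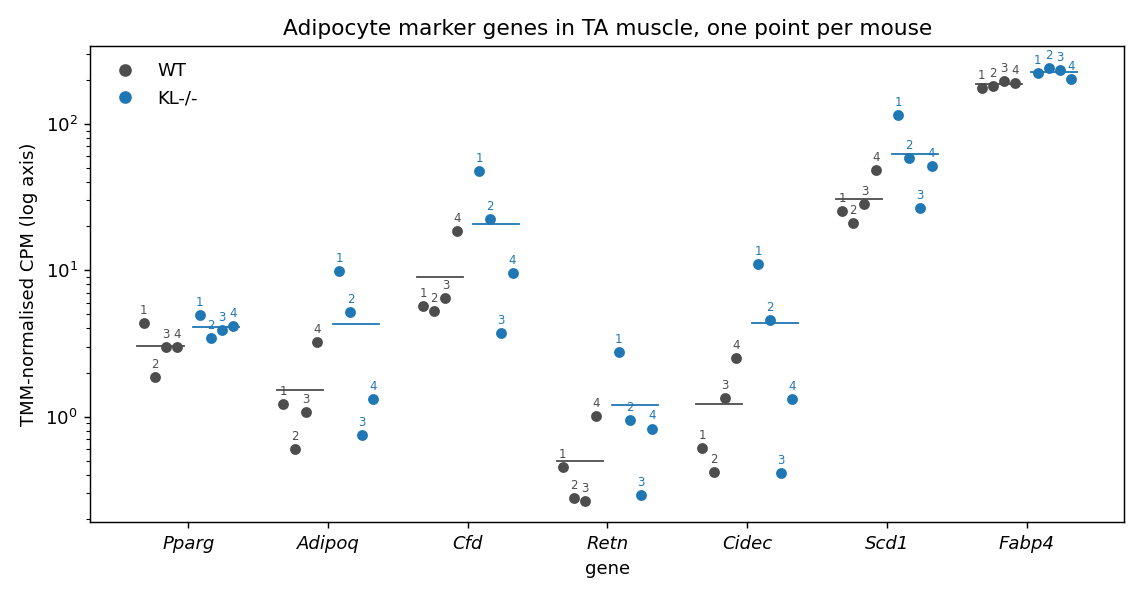
CPM (log axis) of the 7 measured genes in each mouse, numbered by replicate, with WT in grey, KL-/- in blue and a line at each mean of 4. *Fabp4* is the only gene without overlap between genotypes, while KL-/- replicate 1 is the highest sample for 6 of the 7 genes.

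*Pparg*, the transcription factor at the head of the adipocyte program, lies on chromosome 6 from 115360951 to 115490401 (plus strand). Its level was 4.37, 1.85, 2.97 and 2.98 CPM in WT replicates 1 to 4 and 4.95, 3.44, 3.90 and 4.15 CPM in KL-/- replicates 1 to 4. The KL-/- values were close together and WT replicate 1 lay among them, so the genotypes overlapped. Mean *Pparg* was 3.04 ± 1.03 CPM for WT and 4.11 ± 0.635 CPM for KL-/- mice. The log2 fold change of 0.43 (SE 0.23) was not called (edgeR FDR = 0.220). An annotated antisense gene, *Gm44079*, overlaps *Pparg* over 13176 bases in GENCODE vM21. The sources used here do not state whether counting used strand, so reads of the pair may not be told apart.

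*Adipoq* encodes adiponectin, the adipokine most restricted to adipocytes, and lies on chromosome 16 from 23146536 to 23157968 (plus strand). WT muscles had 1.22, 0.601, 1.07 and 3.23 CPM and KL-/- muscles 9.90, 5.15, 0.746 and 1.32 CPM in replicates 1 to 4. KL-/- replicates 1 and 2 lay above every WT sample, while KL-/- replicates 3 and 4 lay within the WT range. The lowest and highest KL-/- samples differed 13.3-fold, more than the 2.80-fold ratio of the genotype means (1.53 ± 1.16 CPM in WT and 4.28 ± 4.23 CPM in KL-/-). The log2 fold change was 1.45 (SE 0.76, edgeR FDR = 0.218).

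*Cfd*, the gene of adipsin or complement factor D, a serine protease that adipocytes secrete, lies on chromosome 10 from 79890853 to 79892660 (plus strand). It was at 5.67, 5.27, 6.44 and 18.6 CPM in WT replicates 1 to 4 and at 47.5, 22.5, 3.73 and 9.54 CPM in KL-/- replicates 1 to 4. KL-/- replicate 3 was the lowest of all 8 samples and KL-/- replicate 1 the highest. Mean *Cfd* was 9.00 ± 6.43 CPM for WT and 20.8 ± 19.4 CPM for KL-/- mice (log2 fold change 1.20, SE 0.69, edgeR FDR = 0.258).

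*Retn*, which encodes the adipokine resistin, lies on chromosome 8 from 3655770 to 3659818 (plus strand) and was the scarcest gene of the group. WT muscles had 11, 6, 7 and 28 counts, or 0.449, 0.278, 0.267 and 1.00 CPM, and KL-/- muscles had 79, 20, 7 and 22 counts, or 2.75, 0.954, 0.290 and 0.829 CPM. Only KL-/- replicate 1 exceeded every WT sample. The log2 fold change was 1.27 (SE 0.67, edgeR FDR = 0.221). Every gene of the counts reached at least 0.603 CPM, scaled by library totals, in at least 4 libraries, and *Retn* did so in exactly 4, of which 1 was WT and 3 were KL-/-. *Cidec* did so in 6 libraries, 3 of each genotype, and the other 5 genes in all 8.

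*Cidec* encodes a protein that fuses lipid droplets into the single large droplet of white adipocytes and lies on chromosome 6 from 113424634 to 113435760 (minus strand). It had 0.612, 0.416, 1.33 and 2.51 CPM in WT replicates 1 to 4 and 11.0, 4.58, 0.414 and 1.32 CPM in KL-/- replicates 1 to 4. Its range over the 8 samples was 26.6-fold, the widest of the 7 genes, with KL-/- muscles at both ends. The log2 fold change was also the largest of the 7, at 1.80 (SE 0.86), and was not called (edgeR FDR = 0.181).

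*Scd1* encodes stearoyl-CoA desaturase 1, which makes monounsaturated fatty acids for triglyceride, and lies on chromosome 19 from 44394450 to 44407709 (minus strand). Its level was 25.2, 20.9, 28.5 and 48.7 CPM in WT replicates 1 to 4 and 115, 58.2, 26.5 and 51.4 CPM in KL-/- replicates 1 to 4. In 3 of the 4 KL-/- muscles *Scd1* was above every WT sample, and KL-/- replicate 3 lay inside the WT range. Mean *Scd1* was 30.8 ± 12.3 CPM for WT and 62.7 ± 37.2 CPM for KL-/- mice (log2 fold change 1.02, SE 0.41, unadjusted p = 0.0314 and FDR = 0.118 by edgeR's quasi-likelihood test). Of the 50-base stretches in *Scd1* transcripts of GENCODE vM21, 4.56% also occur in transcripts of another gene, most often the paralog *Scd3*, so a small share of its reads could have been lost or split. None of the stretches of the other 6 genes was shared.

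*Fabp4*, a fatty acid carrier of adipocytes that capillary endothelium also expresses, lies on chromosome 3 from 10204343 to 10208576 (minus strand). It was at 177, 182, 197 and 190 CPM in WT replicates 1 to 4 and at 222, 242, 234 and 203 CPM in KL-/- replicates 1 to 4. All 4 KL-/- samples were above all 4 WT samples, and 19.7% of all genes were without overlap in one direction or the other. The mean rose from 186.6 ± 8.77 to 225 ± 17.0 CPM, a 1.21-fold ratio (log2 fold change 0.27, SE 0.068, edgeR FDR = 0.0300). The call was lost when any 1 of 6 libraries was left out (WT replicates 1, 2, 3 or 4 or KL-/- replicates 1 or 3), with FDR values over the 8 such fits between 0.0298 and 0.0853 and log2 fold changes between 0.25 and 0.32. It was also lost when libraries were scaled by their totals rather than by TMM factors, where the log2 fold change was 0.15 (edgeR FDR = 0.138). That scaling moved the median of all genes to −0.13, and *Fabp4* lay 0.29 above the median under either scaling.

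Per length of transcript, *Fabp4* stood far above the rest. In RPKM, computed here as CPM divided by the counted length in kilobases, it was at 291 ± 13.7 in WT and 352 ± 26.5 in KL-/- muscle. In WT, *Cfd* followed at 9.71 ± 6.93 and *Scd1* at 6.37 ± 2.54, which did not differ beyond their spread. *Pparg* (1.31 ± 0.444), *Adipoq* (1.24 ± 0.943), *Cidec* (0.708 ± 0.551) and *Retn* (0.388 ± 0.270) formed the low end, each within the spread of its neighbour. In KL-/- muscle the order was *Fabp4*, *Cfd* (22.4 ± 21.0), *Scd1* (13.0 ± 7.69), *Adipoq* (3.47 ± 3.43), *Cidec* (2.52 ± 2.79), *Pparg* (1.77 ± 0.273) and *Retn* (0.939 ± 0.833), again with overlapping spreads below *Fabp4*. These spreads are between mice, and the order of the genes in RPKM within each mouse was not compared. In bulk muscle, more cells of a type and more RNA per cell cannot be told apart.

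The genes differed in their spread between mice of a genotype. The SD of log2 CPM within genotypes was 1.58 for *Cidec*, 1.35 for *Adipoq*, 1.26 for *Cfd*, 1.01 for *Retn* and 0.71 for *Scd1*. Each was larger than that of at least 98.2% of the 11997 genes with a mean log2 CPM of 0 or more, whose median was 0.15. *Retn*, with a mean of −0.058, is not among those genes. The genes compared were not matched for abundance. *Pparg* was at 0.38, larger than 88.1% of those genes. *Fabp4* was at 0.092, larger than only 19.3% of them. Thus the 5 genes with the widest spread included scarce ones and *Scd1* with at least 452 counts in every library.

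**Figure D2:**
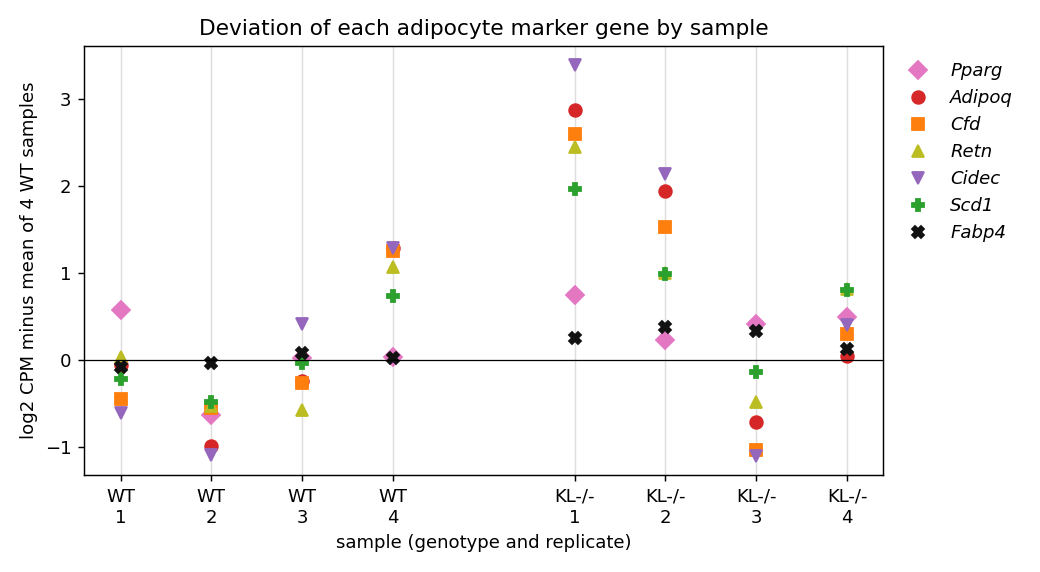
Log2 CPM of each gene minus its mean over the 4 WT samples, by sample. *Adipoq*, *Cfd*, *Retn*, *Cidec* and *Scd1* lie highest in KL-/- replicate 1, followed within KL-/- by replicates 2, 4 and 3, while *Fabp4* shows the smallest spread.

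The 5 variable genes deviated together. KL-/- replicate 1 was the highest of the 8 samples for 5 of 5 genes. Within KL-/- muscle replicate 2 came next for 5 of 5, then replicate 4 and last replicate 3, and within WT replicate 4 was the highest for 5 of 5 and replicate 2 the lowest for 4 of 5. Across the 8 samples the 10 pairs among these genes had Pearson correlations of log2 CPM from 0.90 to 0.98 and Spearman correlations from 0.71 to 0.98. Over all 21 pairs of the 7 genes, two-sided exact permutation tests gave Benjamini-Hochberg adjusted p-values of 0.00156 to 0.00521 for Pearson's r in these 10 pairs, and 0.00833 to 0.121 for Spearman's rho, of which 7 were under the threshold of 0.05. The 2 samples farthest from the median of the first gene of a pair were then left out. Genes were taken in the order *Adipoq*, *Cfd*, *Fabp4*, *Cidec*, *Scd1*, *Retn* and *Pparg*. In every one of these 10 pairs the samples left out included KL-/- replicate 1, and r was still 0.74 to 0.92. Samples were permuted across both genotypes, so a genotype difference shared by 2 genes adds to their r. The 5 genes were grouped with these values known. Groups of 4 are too small for a correlation within genotype.

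*Fabp4* and *Pparg* did not follow this pattern. The 11 pairs with either gene had r from 0.34 to 0.56 and rho from 0.21 to 0.67, with adjusted p from 0.281 to 0.407 for r and 0.159 to 0.619 for rho by the same exact permutation tests. Without the 2 samples farthest from the median of the first gene of a pair, r ran from −0.31 to 0.89. The relation in such pairs thus depends on the samples used. Whether these correlations differ from those among the 5 genes was not tested.

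Ratios within a library gave the same picture in another form. *Cfd* was 4.37 to 8.77 times the CPM of *Adipoq* in the 8 samples, a 2.01-fold range, although *Adipoq* itself ranged 16.5-fold. *Cidec* was 0.500 to 1.25 times *Adipoq*. *Scd1* was 11.3 to 38.9 times *Adipoq* and *Retn* 0.185 to 0.629 times, ranges of 3.45-fold and 3.39-fold. By contrast, *Fabp4* was 22.4 to 314 times *Adipoq* in CPM, a 14.0-fold range, and *Pparg* 0.500 to 5.22 times.

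Single libraries set the size of the genotype difference for the 5 genes. Without KL-/- replicate 1 the log2 fold changes were 0.57 for *Adipoq*, 0.39 for *Cfd*, 0.69 for *Cidec*, 0.56 for *Scd1* and 0.42 for *Retn*, with edgeR FDR values of 0.282 to 0.700. Without WT replicate 4 they were 2.14, 1.85, 2.44, 1.33 and 1.90 in the same order, with edgeR FDR values of 0.0693 to 0.142. Without KL-/- replicate 3, which leaves the 7 libraries of 1 batch date, they were 1.80, 1.55, 2.17, 1.28 and 1.59, with edgeR FDR values of 0.0582 to 0.138. None of the 5 was called in any of these fits. *Pparg* ranged from 0.27 to 0.65 over the 8 fits that left out a sample and was not called in any of them. All 7 genes kept a positive fold change in these 8 fits, which share most of their samples.

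**Figure D3:**
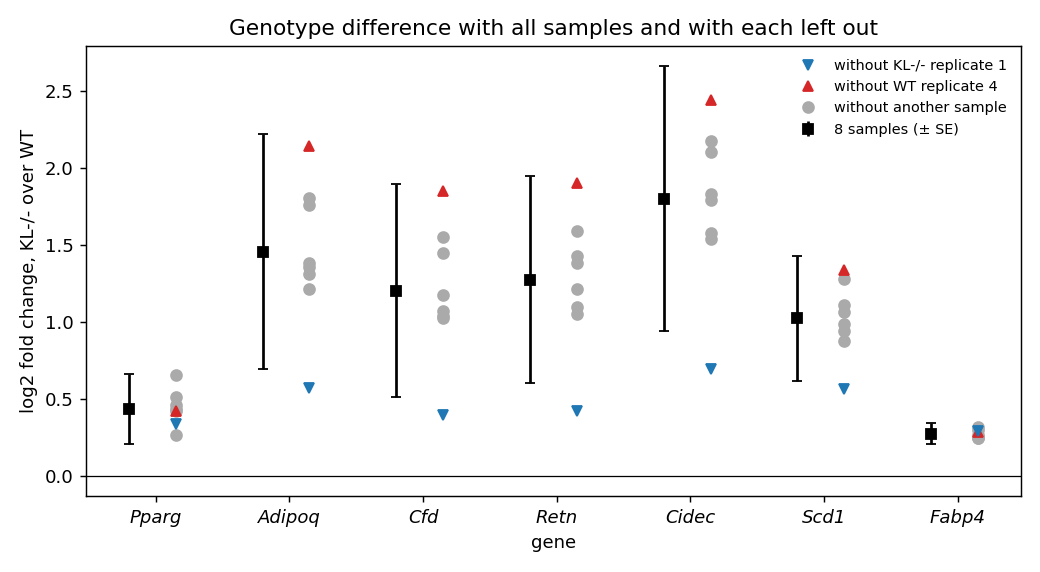
Log2 fold change (KL-/- over WT) of each gene with all 8 samples (black squares, bars ± SE) and with each sample left out. Leaving out KL-/- replicate 1 (blue) gave the lowest value for *Adipoq*, *Cfd*, *Retn*, *Cidec* and *Scd1*, and leaving out WT replicate 4 (red) the highest.

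Other genes that white adipocytes express strongly moved in more than one way. Of 25 listed, 20 were measured, and 4 were called higher, 1 lower and 15 not called, beside 14.0% of all genes called. *Plin4*, a lipid droplet coat protein that muscle fibres also make, rose from 203 to 259 CPM in WT to 342 to 564 CPM in KL-/- muscle (log2 fold change 0.97, SE 0.15, edgeR FDR = 0.00583). *Dgat2*, which catalyses the last step of triglyceride synthesis, rose by 0.90 on the log2 scale (SE 0.17, edgeR FDR = 0.0123), and *Car3*, a carbonic anhydrase abundant in fat and in slow muscle, by 0.44 (SE 0.11, edgeR FDR = 0.0289). In these 3 genes the genotypes did not overlap. *Plin4* and *Dgat2* kept the call in every fit that left out a sample, whereas *Car3* kept it in 2 of the 8 (without KL-/- replicates 2 or 4). *Aqp7*, the glycerol channel of adipocytes, fell by 0.58 (SE 0.15, edgeR FDR = 0.0323), from 11.0 to 16.6 CPM in WT to 7.09 to 9.80 CPM in KL-/- muscle, and kept the call in 2 of the 8 fits (without WT replicate 4 or KL-/- replicate 2). The highest KL-/- sample was replicate 3 for *Plin4* and replicate 1 for *Dgat2*, and the lowest was replicate 2 for both, so neither had the order of the 5 variable members.

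The 15 uncalled genes of that list varied in different ways between KL-/- mice. KL-/- replicate 1 was the highest KL-/- sample for 7 of them, replicate 2 for 5 and replicate 3 for 3, and *Slc36a2*, an amino acid transporter, and *Cyp2e1* alone had the full order seen in *Adipoq*. Genes with values are given here as examples chosen after their values were seen. *Cyp2e1*, a cytochrome P450 present in fat, was at 16.1, 13.5, 0.912 and 1.09 CPM in KL-/- replicates 1 to 4 and at 1.94 to 5.77 CPM in WT. *Pck1*, a key enzyme of glyceroneogenesis, was at 3.77 and 4.53 CPM in KL-/- replicates 1 and 2, at 1 count in replicate 3 and at 0.678 CPM in replicate 4. *Angptl4*, a secreted inhibitor of lipoprotein lipase, was instead lowest in KL-/- replicate 1, at 0.663 CPM against 10.7, 1.33 and 1.62 CPM in KL-/- replicates 2 to 4. *Adig*, an adipocyte gene, varied 1.52-fold between KL-/- samples, from 1.15 to 1.74 CPM. Between WT samples *Adig* varied 3.92-fold, from 0.740 CPM in replicate 2 to 2.90 CPM in replicate 4, the lowest and highest WT samples for *Adipoq* too. The medians of the log2 fold changes were 0.31 for the 20 measured genes and −0.016 for all genes.

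Among 16 transcription factors of adipocyte differentiation and lipid synthesis, 3 were called higher and 1 lower, beside 14.0% of all genes called. *Cebpd* and *Cebpb*, which act early in adipogenesis and also respond to stress hormones and cytokines, rose by 2.37 (SE 0.43, edgeR FDR = 0.0103) and 0.98 (SE 0.19, edgeR FDR = 0.0127). *Cebpd* was at 8.53, 10.1, 6.79 and 5.41 CPM in WT and at 17.3, 21.0, 64.9 and 55.5 CPM in KL-/- replicates 1 to 4. Its highest KL-/- samples, replicates 3 and 4, were thus the lowest KL-/- samples for *Adipoq*. *Klf15*, a factor of adipocyte and muscle metabolism, rose by 0.73 (SE 0.21, edgeR FDR = 0.0488) and kept the call in 2 of the 8 fits that left out a sample (without WT replicate 1 or KL-/- replicate 2). *Zfp423*, which marks committed preadipocytes, fell by 0.69 (SE 0.10, edgeR FDR = 0.00527), from 13.0 to 17.0 CPM in WT, without overlap with the KL-/- samples. *Cebpa*, the partner of PPARγ in mature adipocytes, was not called (edgeR FDR = 0.746). It had 4.65, 6.20, 5.87 and 5.49 CPM in WT and 7.92, 5.77, 2.90 and 3.28 CPM in KL-/- replicates 1 to 4. Its order within KL-/- was that of *Adipoq*, whereas within WT replicate 2 was the highest and replicate 1 the lowest. *Cebpa* is named because of its role beside PPARγ and was chosen after its values were seen.

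Of the 11 measured paralogs of the members, 6 had positive and 5 had negative fold changes. *Scd2*, the desaturase of nerve and other tissues, fell by 1.72 on the log2 scale (SE 0.18, edgeR FDR = 0.00226), from 94.3, 72.6, 74.6 and 64.9 CPM in WT replicates 1 to 4 to 30.8, 17.9, 19.5 and 24.4 CPM in KL-/- replicates 1 to 4. No KL-/- sample reached a WT sample, whereas the mean of *Scd1* was higher in KL-/- muscle without being called. *Retnla*, a resistin-like gene of macrophages and fat, fell by 1.28 (SE 0.35, edgeR FDR = 0.0410) from 8.24 to 8.61 CPM in WT to 1.70 to 6.82 CPM in KL-/-, and kept the call in 1 of the 8 fits that left out a sample (without KL-/- replicate 2). With *Plin4*, 1 of the 11 measured paralogs was called higher, 2 were called lower and 8 were not called, beside 14.0% of all genes called.

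Genes of lipid synthesis and of the droplet were called in both directions, beside 7.35% of all genes called higher and 6.67% lower. Of 17 fatty acid and triglyceride synthesis genes, *Dgat2* was called higher, *Scd2* and *Fads1* (a fatty acid desaturase, −0.79, SE 0.19, edgeR FDR = 0.0256) lower and 14 were not called, with a median log2 fold change of 0.11. *Fads1* kept the call in 3 of the 8 fits that left out a sample (without WT replicates 1 or 4 or KL-/- replicate 2). Of 16 droplet coat and lipolysis genes, 2 were called higher, 2 lower and 12 not, with a median of −0.016. *Pnpla2*, the triglyceride lipase that starts lipolysis, was higher by 0.59 (SE 0.16, edgeR FDR = 0.0425), although KL-/- replicate 2 lay in the WT range and the call was kept in 1 of the 8 fits that left out a sample (without KL-/- replicate 2). *Hilpda*, an inhibitor of that lipase, fell by 0.99 (SE 0.13, edgeR FDR = 0.00334) from 3.84 to 4.58 CPM to 1.88 to 2.37 CPM, without overlap. *Fitm2*, which helps droplets form, fell by 0.27 (SE 0.076, edgeR FDR = 0.0432) and kept the call in 0 of those 8 fits.

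Brown and beige adipocyte markers and adipokine receptors were read in the same way, beside 14.0% of all genes called. Of 7 brown and beige markers, 4 were measured, and *Dio2*, the enzyme that activates thyroid hormone, was called lower (log2 fold change −1.45, SE 0.33, edgeR FDR = 0.0221, lost without WT replicate 3 or KL-/- replicates 3 or 4), while *Ppargc1a* (0.52) and *Prdm16* (0.069) were not called. *Adipor1*, the adiponectin receptor of muscle, rose by 0.35 (SE 0.086, edgeR FDR = 0.0282), from 261 to 306 CPM in WT to 317 to 408 CPM in KL-/-, and kept the call in 3 of the 8 fits that left out a sample (without WT replicates 1 or 4 or KL-/- replicate 2). *Cmklr1*, the receptor of the adipokine chemerin, fell by 0.91 (SE 0.24, edgeR FDR = 0.0382) and kept the call in 2 of them (without KL-/- replicates 1 or 2). The other 4 of the 6 receptor genes were not called.

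**Figure D4:**
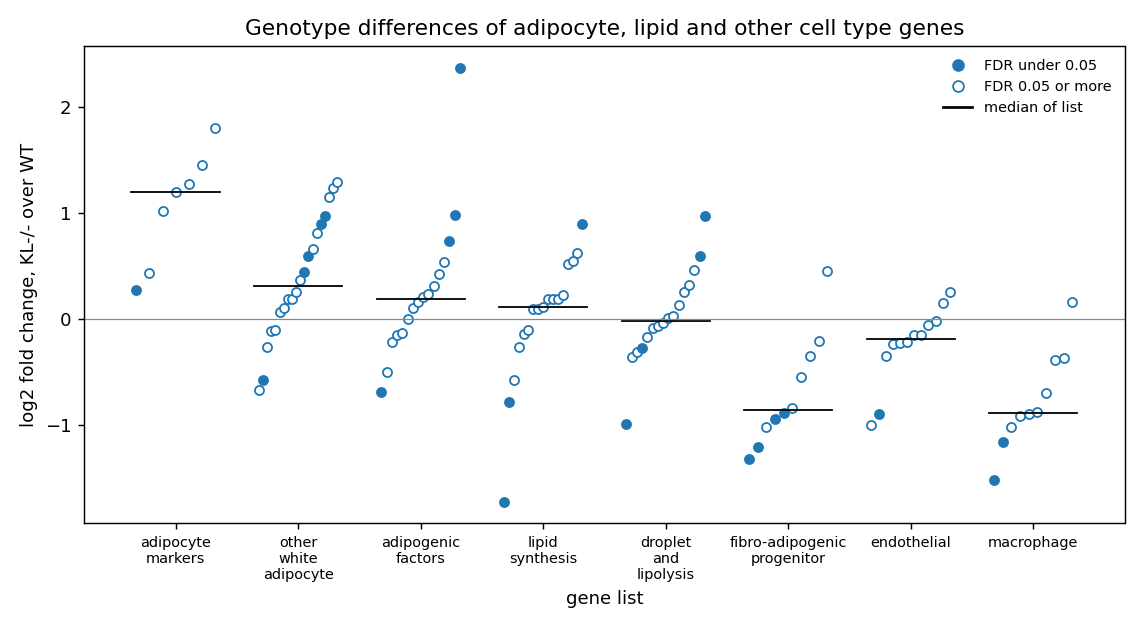
Log2 fold change (KL-/- over WT) of every measured gene in 8 lists, sorted within each list, with called genes filled and a line at each median. The adipocyte markers all lie above 0 with 1 filled, while the fibro-adipogenic progenitor and macrophage lists lie mostly below 0.

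Markers of other cells that whole muscle holds were examined beside the adipocyte genes. For comparison, 6.67% of all genes were called lower. Fibro-adipogenic progenitor markers summed to 1105, 1193, 1376 and 956 CPM in WT replicates 1 to 4 and to 912, 655, 458 and 509 CPM in KL-/- replicates 1 to 4, and 4 of 10 were called lower (*Dpt* −1.21, *Dcn* −0.94, *Gsn* −0.88 and *Lum* −1.32 on the log2 scale, edgeR FDR 0.0283 to 0.0460). Each of these 4 kept its call in 2 or 3 of the 8 fits that left out a sample, and each lost it without WT replicates 2 or 3 or KL-/- replicates 3 or 4. Within KL-/- the order of these sums was that of *Adipoq*, whereas in WT the sample highest in *Adipoq*, replicate 4, had the lowest sum. *Gsn* and *Dcn*, the most abundant progenitor markers, had that KL-/- order, while *Dpt* and *Lum* were highest within KL-/- in replicate 2. Macrophage markers summed to 67.0 to 140 CPM in WT and 48.0 to 83.5 CPM in KL-/-, with 2 of 10 called lower, *Adgre1* (−1.52, edgeR FDR = 0.0364) and *Itgam* (−1.16, edgeR FDR = 0.0277), each of which kept its call in 3 of the 8 fits and lost it without WT replicates 2 or 3 or KL-/- replicates 3 or 4. Within KL-/- the macrophage sums were 83.5, 78.0, 48.0 and 49.0 CPM in replicates 1 to 4, also the order of *Adipoq*. In WT the macrophage sum was likewise lowest in replicate 4, at 67.0 CPM. The part of progenitors and macrophages in the adipocyte gene levels was not tested.

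Endothelial markers are given because *Fabp4* is also an endothelial gene. They summed to 664 to 942 CPM in WT and 651 to 705 CPM in KL-/- muscle, and 1 of 12 was called, *Kdr*, the VEGF receptor, which fell by 0.90 (SE 0.15, edgeR FDR = 0.00781). *Cdh5* (−0.35) and *Pecam1* (−0.059), the most abundant of the list, were not called, and 14.0% of all genes were called. These sums overlapped between genotypes, unlike *Fabp4*, and their part in its level was not tested. Within KL-/- the endothelial sums were 651, 671, 674 and 705 CPM in replicates 1 to 4, which was not the order of *Adipoq*. Of the erythroid markers only *Alas2* was measured, at 3.07 to 9.57 CPM over all samples and not called (log2 fold change 0.12). Fast-fibre markers summed to 147604 to 170764 CPM in WT and 179844 to 231927 CPM in KL-/- without overlap, with *Actn3* called higher (0.67, SE 0.12, edgeR FDR = 0.0103) and *Myh4* (0.46, edgeR FDR = 0.155) and *Atp2a1* (0.35, edgeR FDR = 0.169) not called. Both were called by the likelihood ratio test (FDR 0.0170 and 0.00720 in edgeR), DESeq2 (FDR 0.00317 and 1.33e-07) and limma-voom (FDR 0.0442 and 0.0143), and *Atp2a1* also by the edgeR 3 test (FDR = 0.0263).

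The genes most like the members were ranked by Pearson correlation, over the 8 samples as deviations from genotype means, with the mean scaled deviation of the 7 members. The members were left out of the ranking, deviations within a genotype sum to 0, and r is a description. How high r runs by chance among so many genes over 8 samples was not examined. Among the 11991 genes whose mean log2 CPM was 0 or more, the 10 highest had r from 0.94 to 0.99 and were *Wdfy3*, *Cpeb2*, *Zfp770*, *Cdo1*, *Rbm10*, *Ylpm1*, *Atg2b*, *C3*, *Gm572* and *Fgf13*. *Cdo1*, a cysteine-degrading enzyme, came closest in size of change, with 1.35, 1.16, 1.72 and 2.83 CPM in WT replicates 1 to 4 and 7.29, 3.48, 0.705 and 1.77 CPM in KL-/- replicates 1 to 4. *C3*, the central component of complement, had 24.2, 17.4, 19.4 and 41.4 CPM in WT and 27.2, 21.5, 6.38 and 6.67 CPM in KL-/-. Others moved with small steps, such as *Ylpm1* at 24.1 to 26.9 CPM over all 8 samples. Not all had the order of the 5 variable members, and *Gm572* and *Fgf13* were lowest within KL-/- in replicate 4. *Wdfy3* (−0.25, edgeR FDR = 0.0497) and *Cpeb2* (−1.17, edgeR FDR = 0.00302) were lower in KL-/- muscle, while the fold changes of the members were positive. *Cpeb2* kept the call in all 8 fits that left out a sample. *Wdfy3* kept it in 2 of them (without KL-/- replicates 1 or 2) and lost it under the likelihood ratio test (FDR = 0.0518 in edgeR), the edgeR 3 test (FDR = 0.0513) and the replicate block (FDR = 0.108 in edgeR). Among the members themselves r with that mean was 0.91 to 0.99 for the 5 variable genes, 0.41 for *Pparg* and 0.20 for *Fabp4*, values that each member helps to set.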

How the data were processed

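Sequencing counts from the TA muscles of 4 WT and 4 KL-/- mice were used. Per the labels and the methods, the authors checked reads with FastQC, aligned them to mm10 with STAR, and made the deposited counts per gene with featureCounts, without normalization. The annotation version and strand setting are not given in the sources used here. The sample records gave genotype and replicate number. Genotypes were compared with edgeR 4.0.16 under R 4.3.3 (estimated dispersions, TMM factors, quasi-likelihood test, Benjamini-Hochberg adjustment over 12551 genes), and log2 CPM used a prior count of 2. The test was checked on simulated counts. Permutation tests and promoter searches used Python 3.11.15 with scipy 1.17.1. Floors of 3 counts cover counting error only.

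The members and gene lists were chosen with earlier results of these data known. Named were all members, up to 4 called genes per list with the smallest FDR, the 2 most abundant where fewer than 2 were called, and the 10 genes most like the members. *Tusc5* and *Ptrf* are older symbols in the counts. Listed genes without counts here, such as *Lep*, *Ucp1* and *Plin1*, were not analysed here. Alternatives were the likelihood ratio and edgeR 3 tests, DESeq2 1.42.0, limma-voom (limma 3.58.1), RLE factors, library totals, 2 filters, the replicate number as a block, and each sample left out. The filters were at least 10 counts in every sample and the filterByExpr defaults, which removed no gene.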

Additional observations from a re-analysis of the deposited data

Results flagged for a closer look

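Of 124 groups of 4 samples examined, 6 held a sample whose gap to its nearest neighbour took up an unusually large part of the range of the group, and chance gives about 1 in 20. Among the members this was *Cfd* in WT replicate 4, at 18.6 CPM where the other 3 WT samples had 5.27 to 6.44 CPM. *Klf15* was at 54.1 CPM in WT replicate 1 against 34.2 to 37.2 CPM in the other WT samples. *Cmklr1* was at 12.6 CPM in WT replicate 3 against 9.39 to 9.68 CPM. *Myh4* was at 62798 CPM in KL-/- replicate 2 against 42976 to 45341 CPM in the other KL-/- samples. The summed level of the other white adipocyte genes was 4875 CPM in WT replicate 2 against 5402 to 5425 CPM in the other WT samples. *Car3*, the most abundant gene of that list and also a muscle gene, makes up much of this sum. It was at 2468 CPM in WT replicate 2 and at 2932, 3006 and 2901 CPM in WT replicates 1, 3 and 4. The summed level of the fast-fibre markers was 147604 CPM in WT replicate 4 against 167765 to 170764 CPM. WT replicate 4 is thus the WT sample with the highest level of *Cfd* and the lowest sum of fast-fibre markers.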

How the results depend on the processing

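The count of called members, 1 of 7, was the same under the likelihood ratio test, the edgeR 3 test, DESeq2, limma-voom and RLE factors. With at least 10 counts in every sample 5 members were tested and 1 was called. The filterByExpr defaults of edgeR removed none of the 12551 genes, so that filter only repeats the main fit. The count of called members was 0 with library totals and 0 with the replicate block, and 0 to 1 when each sample was left out. The count of other white adipocyte genes called, 5 of 20, was 4 to 5 under the same alternatives, 3 with library totals, 2 with the replicate block, and 2 to 6 when each sample was left out. All members tested kept a positive log2 fold change under all 17 alternatives, 1 of which repeats the main fit. Same-numbered WT and KL-/- samples did not deviate together (correlations of −0.17, 0.19, −0.40 and 0.010 over 11997 genes), so no pairing by number was seen. Whether mice shared a litter or handling cannot be told from these correlations. Over all genes, 671 were called with the replicate block, 2619 with library totals (18.8% of them higher, against 52.4% of 1759) and 762 to 2755 when each sample was left out. The cause of these differences was not tested. Genes that changed sign were uncalled throughout. With library totals, *Prdm16* was at −0.047, *Alas2* at −0.0064, *Ylpm1* at −0.076 and *Fgf13* at −0.080. With each sample left out, *Alas2* ran from −0.14 to 0.51, *Pecam1* from −0.14 to 0.055, *Prdm16* from −0.067 to 0.19 and *Gm572* from −0.11 to 0.0026. A minimum of 10 counts in every sample removed *Cidec* and *Retn*, whose lowest libraries held 9 and 6 counts.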
